A study of Mus musculus with 45 samples.

Results

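Keratins are the intermediate filament proteins of epithelial cells, and the family was followed here across undifferentiated mouse embryonic stem cells (ESCs) and the embryoid bodies (EBs) formed from them. A gene was counted as a keratin when its annotated symbol consisted of Krt followed by digits alone. This gave 44 of the 18193 named genes on the array, 23 of type I and 21 of type II. Each gene was read from the probe set with the highest mean over all arrays, and 8 keratins had more than 1 probe set. Another 4 keratins carry a letter after the number (Krt6a, Krt6b, Krt33a and Krt33b) and fall outside that rule.

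A keratin filament is built from equal amounts of an acidic type I and a basic or neutral type II chain, so each epithelium makes at least one of either type. Simple, single-layered epithelia and the first embryonic epithelia make Krt8 with Krt18 and, in ducts and glands, Krt7 and Krt19; the basal layer of stratified epithelia makes Krt5 with Krt14 and Krt15. Cells leaving the basal layer switch to other pairs, Krt1 with Krt10 in epidermis and Krt4 with Krt13 in oesophagus and mouth, and a large remaining group forms hair and its root sheath. The filaments are tied to desmosomes and hemidesmosomes and give epithelial sheets their mechanical strength.

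The cells came from male ESCs of strain 129 in 3 lines: wild type (WT), a scrambled control (SCR) and a line labelled as Strip2 silenced, called KD-labelled below. Each line was sampled undifferentiated (ESC) and as EBs of 4, 8, 12 and 16 days grown from hanging drops, on 3 Affymetrix Mouse 430 2.0 arrays a group, 15 groups and 45 arrays in all. The labels do not say whether the 3 arrays of a group came from separate cultures, nor whether a silenced line is 1 clone. Unless stated otherwise, each p-value below reflects how far arrays spread within groups, pooled over all 15 groups. That spread may be technical, and it is not the spread of the compared groups alone. In every line, 1 of the 8-day arrays is marked as undifferentiated in a second label field; its title names it an 8-day EB, and it was grouped by title. All samples are bulk RNA, in which fewer cells of a type and less RNA per cell cannot be told apart.

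The Strip2 probe set was dim in all 15 groups, with group means of 2.57 to 4.85, so a lower level in ESCs and early EBs could hardly have been seen, and it gives no check of the KD label there. Against SCR, its KD-labelled level differed by -0.13 in ESCs, 0.46 at day 4 and 0.04 at day 8 (adjusted p 0.71, 0.052 and 0.88). It was lower by day 12 (difference -0.92, adjusted p 1e-04) and day 16 (-1.56, 8.6e-09), whereas against WT it was higher at day 12 (0.63, adjusted p 0.0061) and differed by 0.4 at day 16 (0.07). SCR itself stood above WT on those days, at means of 4.67 against 3.12 (adjusted p 4.1e-07) and 4.85 against 2.88 (1.3e-09). KD-labelled EBs also kept ESC markers: the mean log2 level of 10 pluripotency genes was 10.87 to 10.89 on their day-16 arrays, against 4.6 to 5.74 in SCR and 5.85 to 6.7 in WT. Over 10 mesenchyme genes the same arrays read 5.11 to 5.77, 10.86 to 10.93 and 11.07 to 11.23. The part of these shifts in the keratin results below was not tested.

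Values are deposited log2 signals, so a difference of 1 is a doubling, and they are relative readings for 1 probe set across arrays; levels of different keratins are not set against each other. The array medians lay between 5.02 and 5.18, and the median of all values was 5.08. A gene is called different when limma's adjusted p, corrected over all 18193 genes, is below 0.05, and errors are the standard errors (SE) of that fit or the SD of 3 arrays. For further probe sets of a gene, the adjusted p comes from a separate fit corrected over the 34945 probe sets with 1 gene. Of the 44 keratins, 20 exceeded 5.08 in at least 1 group mean. Per-array values are given for 14 keratins: 8 reached a group mean of 8, and 6 more were called with at least a 2-fold difference in a comparison between KD-labelled and SCR cells or from ESC to day 16. Group means of the other 30 ran from 2.38 to 7.03.

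**Figure D1:**
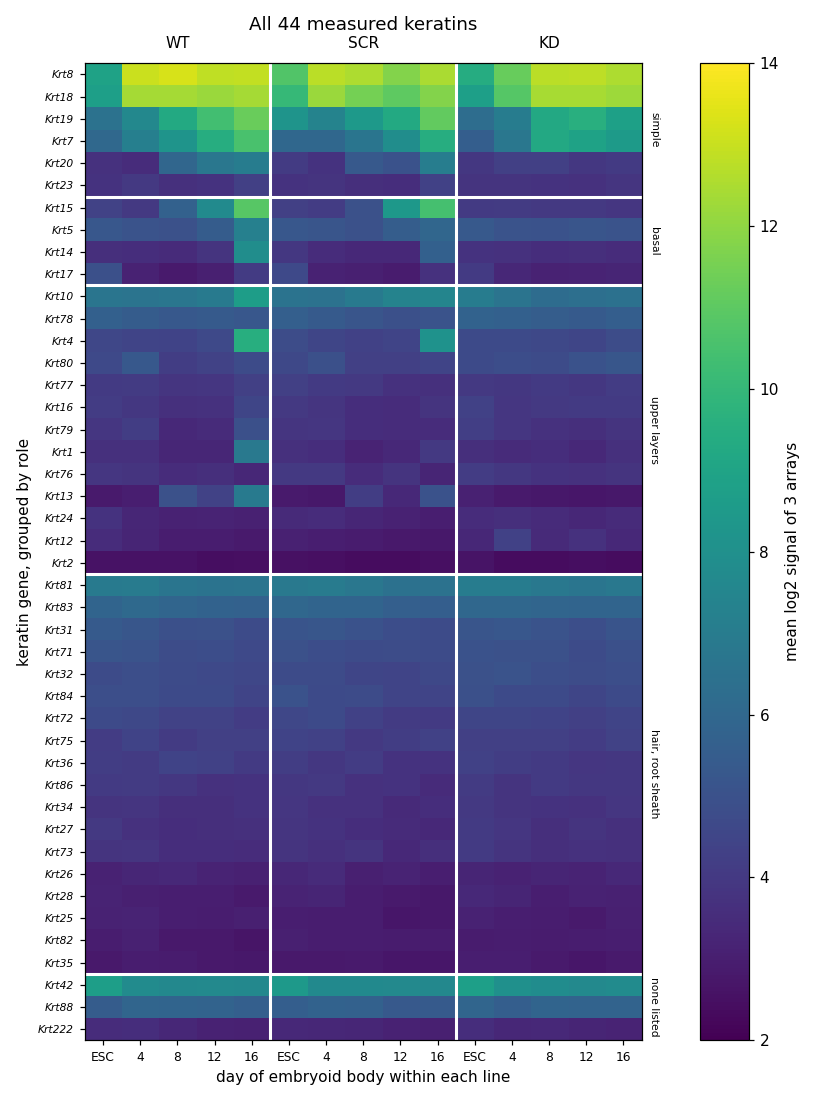
Colour gives the mean log2 signal of 3 arrays for each of the 44 keratins (vertical axis, grouped by role) in ESCs and EBs of each day (horizontal axis) of the WT, SCR and KD-labelled (KD) lines. Krt8 and Krt18 are bright in EBs of all 3 lines, Krt15 and Krt4 are bright at day 16 in WT and SCR but stay near 4 and 5 in KD-labelled EBs, and the hair and root sheath keratins vary little.

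Krt8 and Krt18, the type II and type I partners of the earliest embryonic epithelia, rose from ESC to EB in all 3 lines, and at day 4 their level was lower in the KD-labelled line than in both controls. They lie next to each other among the keratin genes of chromosome 15, with 2 other annotated genes between them, although Krt18 is a type I gene and the other 22 type I members measured here are on chromosome 11. Their promoters are shown because these neighbours had similar courses: 250 bases before and 50 after each annotated start, from RefSeq on build GRCm38.p6, Krt8 at chr15:102004293-102004592 (minus strand) and Krt18 at chr15:102027966-102028265 (plus strand). Capitals mark the letters TATAAA on either strand, which in Krt8 start at -3 and -1 from the annotated start, on overlapping letters of the opposite strands. The Krt18 window holds no TATAAA, nor either of the other motifs searched, which are spelled out further on.

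Krt8 promoter: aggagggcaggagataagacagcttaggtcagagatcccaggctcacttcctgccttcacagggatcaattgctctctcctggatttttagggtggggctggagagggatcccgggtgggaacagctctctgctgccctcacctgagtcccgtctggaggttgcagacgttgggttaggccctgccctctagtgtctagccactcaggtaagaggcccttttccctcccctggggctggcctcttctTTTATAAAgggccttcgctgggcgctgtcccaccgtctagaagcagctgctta
Krt18 promoter: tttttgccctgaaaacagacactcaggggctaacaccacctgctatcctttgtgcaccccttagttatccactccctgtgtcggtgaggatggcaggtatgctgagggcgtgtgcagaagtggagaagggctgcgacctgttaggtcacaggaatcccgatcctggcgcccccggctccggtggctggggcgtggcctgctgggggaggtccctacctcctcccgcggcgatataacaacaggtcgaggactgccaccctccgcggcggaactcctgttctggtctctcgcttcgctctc

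The WT arrays read Krt8 at 10.24, 8.76 and 7.8 in ESCs and at 13.26, 12.97 and 12.84 at day 4. SCR arrays went from 11.37, 10.07 and 10.8 to 12.74, 12.76 and 12.75, and KD-labelled arrays from 9.38, 9.55 and 9.37 to 11.1, 11.17 and 11.43. Every EB array of day 4 therefore lay above every ESC array of its own line, and all 3 KD-labelled day-4 arrays lay below all 6 controls. The rise by day 4 was 4.09 in WT (adjusted p 8e-14), 2 in SCR (1e-06) and 1.8 in KD-labelled cells (2.5e-05), each with an SE of 0.31. At day 4 the KD-labelled level was lower than SCR by -1.52 (adjusted p 8.3e-05) and lower than WT by -1.79 (8.3e-06). At day 8 KD-labelled arrays read 12.66, 12.64 and 13.01, SCR arrays 12.62, 12.55 and 12.39 and WT arrays 13.11, 13.39 and 13.38, and neither KD-labelled difference was called (0.25 against SCR, adjusted p 0.53, and -0.52 against WT, 0.16). At day 12 KD-labelled cells exceeded SCR by 1.03 (adjusted p 0.0042), where the SCR arrays had dipped to 11.64, 11.84 and 11.8, but differed from WT by -0.06 (0.89). At day 16 the 3 lines read 12.78, 12.81 and 13.1 (WT), 12.52, 12.38 and 12.51 (SCR) and 12.65, 12.25 and 12.61 (KD-labelled), with no call between any of them.

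Krt18 followed a similar course on its own scale. At day 4 its KD-labelled arrays were at 10.67, 10.79 and 11.1, its SCR arrays at 12.21, 12.39 and 12.01 and its WT arrays at 12.62, 12.3 and 12.16. The KD-labelled group did not overlap either control, with differences of -1.35 from SCR (adjusted p 8.2e-05) and -1.51 from WT (2e-05). At day 8 the KD-labelled arrays read 12.3, 12.38 and 12.67 and the WT arrays 12.25, 12.47 and 12.46, while SCR stood lower at 11.69, 11.42 and 11.35. KD-labelled cells were therefore above SCR at day 8 (0.96, adjusted p 0.0029) and day 12 (1.43, 2.5e-05), but differed from WT by 0.06 and 0.22 on those days (0.89 and 0.55). From ESC to day 16 Krt18 rose by 3.59 in WT, 1.76 in SCR and 3.51 in KD-labelled cells (SE 0.27, adjusted p 5e-14, 6.8e-07 and 1.1e-12).

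Markers of extraembryonic epithelia, which also make Krt8 and Krt18, had mean levels that were lower in KD-labelled than SCR EBs at day 4 and higher at day 12. Krt8 and Krt18 had these directions on those days, but the courses differed at other stages. In ESCs both keratins were lower in KD-labelled than SCR cells, while the endoderm mean was higher (6.19 and 5.62). At day 16 neither keratin was called, while the trophoblast mean was higher (5.74 and 5.05). The mean level of 9 trophoblast markers at day 4 was 5.27 to 5.39 in KD-labelled, 6.21 to 6.39 in SCR and 6.38 to 6.6 in WT EBs, and that of 15 visceral and parietal endoderm markers was 6.93 to 7.23, 7.27 to 7.36 and 7.2 to 7.38. At day 12 the trophoblast mean was 5.73 to 5.86, 5.17 to 5.49 and 5.61 to 5.87, and the endoderm mean 9.43 to 9.69, 8.73 to 9.13 and 8.8 to 8.98. Against SCR, 2 trophoblast markers were higher and 4 lower at day 4 (22.6% and 19.9% of all genes), and 5 higher and 2 lower at day 12 (31% and 24.6%). Of the endoderm markers, 4 were higher and 7 lower at day 4, and 7 higher and 4 lower at day 12. Single markers of these cell types did not all move with the means. Cubn, of endoderm, had day-4 group means of 7.79 (KD-labelled) and 3.86 (SCR), and day-12 means of 10.89 and 4.63. Sox17 read 6.3 and 9.86, then 10.41 and 8.83. Of trophoblast genes, Elf5 read 3.19 and 3.2, then 3.14 and 6.25. Cdx2 read 5.27 and 7.85, then 5.05 and 6.47. The part of such cells in the Krt8 and Krt18 results was not tested.

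In ESCs the spread of both genes was wide. Krt18 read 9.76, 8.61 and 7.95 in WT, 10.43, 9.29 and 10.36 in SCR and 8.62, 8.79 and 8.85 in KD-labelled cells. The KD-labelled ESCs were lower than SCR for Krt8 (-1.31, adjusted p 0.0012), Krt18 (-1.27, 0.00044) and Krt19 (-1.91, 0.00016), yet none of the 3 was called against WT (0.5, -0.02 and -0.21, adjusted p 0.3, 0.98 and 0.78). SCR ESCs in turn exceeded WT for Krt8 (1.81, adjusted p 0.00011), Krt18 (1.25, 0.0019) and Krt19 (1.7, 0.0024), with overlapping arrays. In a fit of only the 6 arrays compared, these SCR against WT calls were lost (adjusted p 0.21, 0.27 and 0.22). Same-numbered arrays of these groups deviated together, and pair by pair SCR exceeded WT by 1.13, 1.31 and 3 for Krt8, 0.67, 0.68 and 2.41 for Krt18 and 1.31, 0.83 and 2.95 for Krt19. With the array number as a block in the fit of all arrays the 3 were still called (adjusted p 7.8e-05, 0.0018 and 0.0021). Without the third WT ESC array the Krt18 and Krt19 differences were 0.84 and 1.28 and no longer called (0.066 and 0.059), and without the first SCR ESC array the Krt19 difference was 1.37 (0.051).

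**Figure D2:**
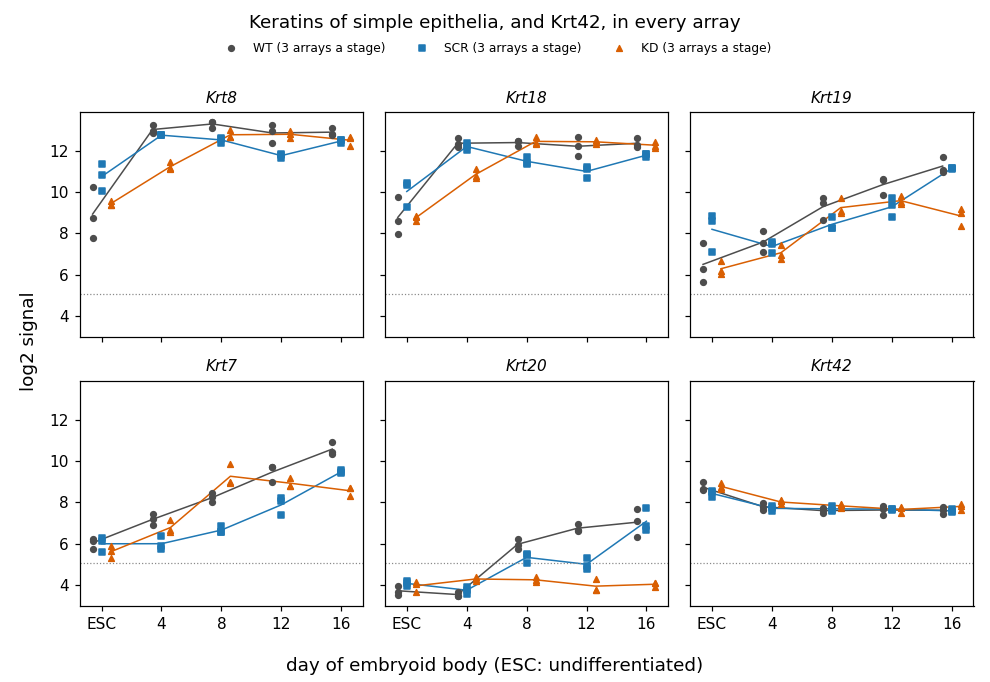
Points give the log2 signal of every array (vertical axis) at each stage (horizontal axis) for Krt8, Krt18, Krt19, Krt7, Krt20 and Krt42, lines join the means of 3 arrays, and the dotted line is the median of all values, 5.08. KD-labelled arrays (KD, triangles) lie below both controls for Krt8 and Krt18 at day 4, above both for Krt7 at day 8 and below both for Krt7, Krt19 and Krt20 at day 16.

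Krt19, the small type I keratin of ducts and many simple epithelia, and Krt7, a type II keratin of glandular and ductal lining, rose later. In WT and SCR the means of both were highest at day 16, while in KD-labelled EBs the Krt19 mean was highest at day 12 and the Krt7 mean at day 8. The Krt7 promoter is printed because Krt7 is the keratin with the largest excess in KD-labelled over SCR EBs: it lies at chr15:101412153-101412452 (plus strand), and capitals mark GGGCGG on either strand, which starts at -141, -128, -56 and -24.

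Krt7 promoter: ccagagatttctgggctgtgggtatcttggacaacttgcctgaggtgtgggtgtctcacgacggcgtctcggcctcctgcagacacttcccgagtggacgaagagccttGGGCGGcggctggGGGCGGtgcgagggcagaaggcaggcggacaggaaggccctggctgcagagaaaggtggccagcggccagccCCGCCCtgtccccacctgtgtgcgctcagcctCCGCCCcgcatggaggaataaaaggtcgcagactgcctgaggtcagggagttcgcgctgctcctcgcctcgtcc

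At day 8 Krt7 read 8.99, 8.93 and 9.86 on KD-labelled arrays, 6.85, 6.58 and 6.54 in SCR and 8.01, 8.25 and 8.43 in WT. The lowest KD-labelled array exceeded every control array. The difference from SCR was 2.6 (SE 0.24, adjusted p 1.1e-11) and from WT 1.03 (0.00042), while SCR was below WT by -1.57 (2.4e-05). At day 16 the order had turned: KD-labelled arrays read 8.68, 8.69 and 8.3, SCR 9.54, 9.41 and 9.47, and WT 10.34, 10.45 and 10.93. The 3 groups did not overlap, and every pair was called, with KD-labelled cells lower than SCR by -0.92 (adjusted p 0.0012) and lower than WT by -2.02 (4.7e-09), and SCR lower than WT by -1.1 (0.0017). Krt7 still rose from ESC to day 16 in all 3 lines, by 4.54 in WT, 3.48 in SCR and 2.95 in KD-labelled cells (adjusted p 2.7e-18, 3.7e-15 and 3.5e-12).

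At day 8 the KD-labelled arrays read Krt19 at 8.98, 9.06 and 9.7, beside 8.66, 9.72 and 9.48 in WT and 8.78, 8.28 and 8.25 in SCR. Neither difference was called (-0.04 from WT, adjusted p 0.94, and 0.81 from SCR, 0.07). At day 16 the KD-labelled arrays were at 9.18, 8.36 and 8.99, while SCR reached 11.15, 11.18 and 11.09 and WT 11.08, 10.99 and 11.7. No KD-labelled array reached any control array, and the differences were -2.3 from SCR (SE 0.38, adjusted p 2.1e-06) and -2.41 from WT (9.9e-07). Within the KD-labelled line Krt19 was still higher at day 16 than in ESCs by 2.55 (9.1e-07).

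Krt20, a type I keratin of intestinal lining and of the surface layer of the bladder, rose in both controls and showed no called rise in KD-labelled EBs. Its promoter at chr11:99438104-99438403 (minus strand) holds TATAAA, in capitals, starting 29 bases before the annotated start.

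Krt20 promoter: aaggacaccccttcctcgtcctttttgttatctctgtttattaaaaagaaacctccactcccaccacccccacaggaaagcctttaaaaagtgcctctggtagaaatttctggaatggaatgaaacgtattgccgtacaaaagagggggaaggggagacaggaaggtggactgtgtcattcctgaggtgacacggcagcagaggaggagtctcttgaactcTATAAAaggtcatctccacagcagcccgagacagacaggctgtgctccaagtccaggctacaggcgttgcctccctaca

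At day 16 Krt20 read 6.34, 7.1 and 7.68 in WT, 6.68, 6.85 and 7.72 in SCR and 4.1, 4.09 and 3.92 in KD-labelled EBs. The 2 controls overlapped, and the KD-labelled arrays lay more than 2 units below both. The difference from SCR was -3.05 (SE 0.23, adjusted p 3.7e-14) and from WT -3 (7e-14). KD-labelled EBs were already lower at day 8 (-1.09 from SCR, adjusted p 1e-04, and -1.72 from WT, 4.5e-08) and at day 12 (-1.06, 0.00014, and -2.8, 4.4e-13). From ESC to day 16 the change was 3.32 in WT, 3.01 in SCR and 0.08 in KD-labelled cells (adjusted p 3.1e-15, 4.2e-14 and 0.83). Beside this, 7 of 8 gut epithelium markers were lower in KD-labelled than SCR EBs at day 16 and 1 was higher (26.8% and 39.8% of all genes), their mean level being 4.48 to 4.74 against 6.7 to 7.11 in SCR and 6.52 to 6.97 in WT. Lgals4 and Cdh17, a lectin and a cadherin of intestinal epithelium, differed by -6.25 and -3.63. The part of such cells in the Krt20 result was not tested. Krt23, the remaining simple-epithelial keratin, stayed dim, with a highest group mean of 4.33, and was lower in KD-labelled than SCR EBs at day 16 by -0.49 (adjusted p 0.0058).

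Among keratins of the basal layer, Krt15, Krt5 and Krt14 rose in WT and SCR EBs by day 16 and had no called change from ESC in the KD-labelled line on any day. Krt15, a type I keratin of basal cells and of the hair follicle bulge, had the widest range of group means of all 44 keratins, 6.99. Its WT arrays read 5.64, 5.98 and 5.53 at day 8, 7.73, 7.96 and 7.47 at day 12 and 10.64, 11.3 and 10.68 at day 16. SCR arrays read 5.23, 4.99 and 4.71, then 7.67, 9.04 and 8.5, then 10.85, 10.19 and 10.38. On KD-labelled arrays Krt15 was at 4.09, 3.94 and 3.97, then 4, 4.04 and 3.88, then 3.66, 4.17 and 3.82, all below the median of all values. The KD-labelled arrays overlapped neither control on any of these days.

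The Krt15 difference between KD-labelled and SCR EBs widened from -0.98 at day 8 (SE 0.22, adjusted p 0.00033) to -4.43 at day 12 (9.7e-19) and -6.59 at day 16 (1.2e-23), the last a 96.3-fold lower signal. Against WT it was -1.72, -3.75 and -6.99 (adjusted p 3.5e-08, 1.3e-16 and 2.4e-24). SCR and WT themselves were close at day 16 (-0.4, adjusted p 0.37). In KD-labelled cells the day-16 level differed from ESC by -0.15 (0.66).

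Krt5 and Krt14, the defining pair of basal keratinocytes, were lower in SCR than in WT as well. At day 16 Krt14 read 6.9, 8.93 and 7.83 in WT, 6.33, 5.14 and 5.62 in SCR and 3.53, 3.59 and 3.43 in KD-labelled EBs. Krt5 read 6.97, 7.76 and 6.89 in WT, 6.32, 5.87 and 5.7 in SCR and 5.04, 5.24 and 4.94 in KD-labelled EBs. For both genes the 3 groups separated without overlap, in the order WT, SCR, KD-labelled. Krt14 was lower in KD-labelled than SCR EBs by -2.18 (SE 0.28, adjusted p 1.9e-08) and than WT by -4.37 (7.7e-16), and SCR was lower than WT by -2.19 (3.9e-07). In a fit of only the 6 arrays that last difference was not called (0.061). For Krt5 the same differences were -0.89 (SE 0.16, adjusted p 1.5e-05), -2.13 (1.2e-13) and -1.24 (8.1e-07). The Krt14 probe set used carries the array maker's _x_ mark for probes that may also match other transcripts; of its 2 further probe sets, 1 showed a smaller day-16 difference between KD-labelled and SCR EBs (-1.4, adjusted p 4.5e-05) and the other stayed between group means of 3.1 and 3.57 with no call (0.23, 0.16). A probe set annotated to both Krt14 and Krt17 was left out.

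Krt17, the remaining basal-type keratin, known for injured and appendage epithelium, moved differently. It fell from ESC to day 4 by 1.78 in WT (4.92 ± 0.56 to 3.14 ± 0.08, SD, n = 3, limma adjusted p 6.2e-07), by 1.51 in SCR (1e-05) and by 0.74 in KD-labelled cells (0.038), where leaving out any 1 of the 6 arrays ended the call. At day 16 it was lower in KD-labelled than WT EBs by -0.85 (adjusted p 0.0061), with WT at 4.09 ± 1.04 (SD, n = 3). Without the second WT array that difference was -0.25 (limma adjusted p 0.28).

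Beside the basal keratins, 4 of 7 surface ectoderm markers were lower in KD-labelled than SCR EBs at day 16 and 1 was higher (26.8% and 39.8% of all genes). Their mean level was 5.03 to 5.1 in KD-labelled, 5.5 to 5.99 in SCR and 6.16 to 6.78 in WT EBs. Trp63, the transcription factor of basal epithelial cells, was at 6.55 ± 0.43 in WT, 5.99 ± 0.47 in SCR and 3.45 ± 0.04 in KD-labelled EBs (SD, n = 3), and lower in KD-labelled than SCR EBs by -1.79 at day 8, -3.18 at day 12 and -2.54 at day 16 (limma adjusted p 1.7e-06, 7e-12 and 1.3e-09). The part of such cells in the basal keratin results was not tested.

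**Figure D3:**
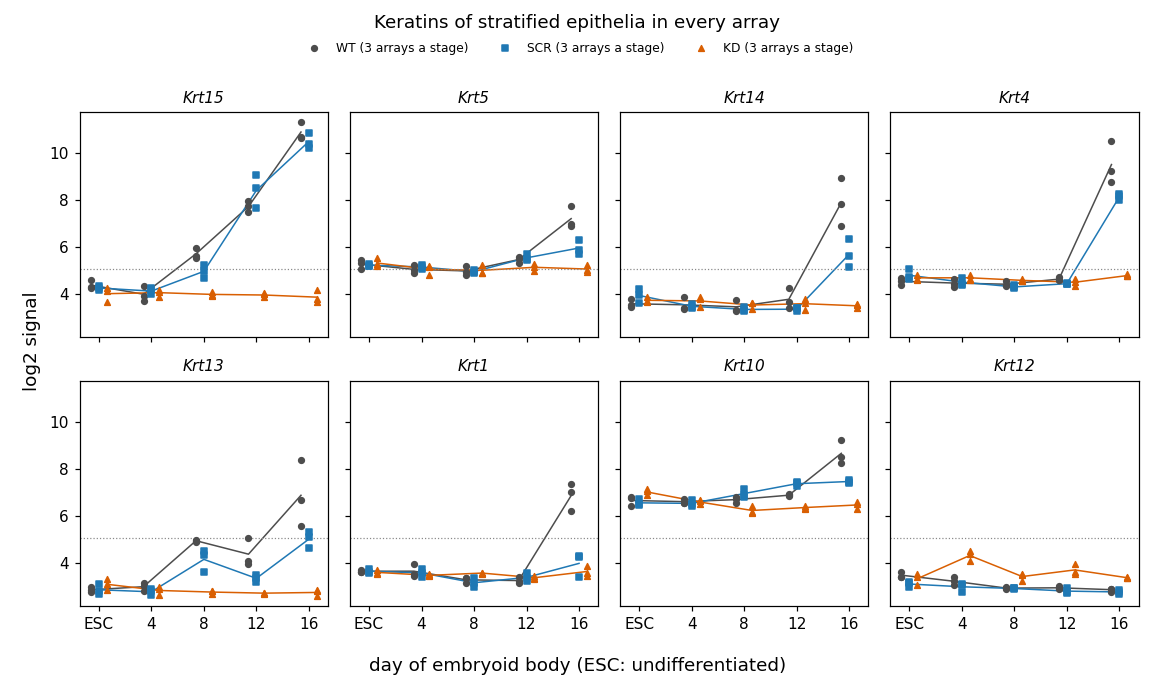
Points give the log2 signal of every array (vertical axis) at each stage (horizontal axis) for 8 keratins of stratified epithelia, lines join the means of 3 arrays, and the dotted line is the median of all values, 5.08. KD-labelled arrays (KD, triangles) stay flat for Krt15, Krt5, Krt14, Krt4 and Krt13, whose WT and SCR arrays are highest at day 16, and lie above the controls for Krt12 from day 4.

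Of the 13 keratins of the upper layers, Krt4, Krt13, Krt1, Krt10 and Krt12 changed enough to be given in full. Krt4 and Krt13, the type II and type I pair of moist stratified linings such as oesophagus, rose in both controls with no called rise in the KD-labelled line. Krt4 appeared late: at day 16 it read 8.76, 10.51 and 9.22 in WT, 8.16, 7.99 and 8.23 in SCR and 4.85, 4.78 and 4.76 in KD-labelled EBs, after group means of 4.32 to 4.65 at days 8 and 12 in all 3 lines. The groups did not overlap, and KD-labelled EBs were lower than SCR by -3.33 (SE 0.21, adjusted p 2.2e-16) and lower than WT by -4.7 (2.2e-20). SCR was lower than WT by -1.37 (adjusted p 8e-06), or 0.12 when only the 6 arrays were fitted.

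Krt13 was lower in KD-labelled than SCR EBs at days 8 and 16, but not called at day 12. It neighbours Krt15 and Krt19 on chromosome 11 in the order Krt13, Krt15, Krt19 with no other annotated gene between them, and all 3 were lower in KD-labelled than SCR EBs at day 16. The same run holds Krt34, Krt31, Krt32, Krt35 and Krt36 on the other side of Krt13, and none of these was called lower. Krt34, Krt31 and Krt32 were called higher (0.31, 0.34 and 0.29), though not after cyclic loess. Of the 2 annotated starts of Krt13, the promoter at chr11:100121517-100121816 (minus strand) is shown, with capitals on TGANTCA, the letters bound by AP-1 factors, starting at -196. The promoter of the other start holds the same letters at -183 and -34.

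Krt13 promoter: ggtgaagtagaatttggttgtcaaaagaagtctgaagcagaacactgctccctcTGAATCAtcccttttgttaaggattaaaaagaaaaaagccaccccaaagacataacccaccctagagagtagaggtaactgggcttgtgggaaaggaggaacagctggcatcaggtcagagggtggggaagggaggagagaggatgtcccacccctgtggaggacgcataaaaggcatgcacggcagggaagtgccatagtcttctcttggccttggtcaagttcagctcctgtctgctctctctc

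Krt13 read 5, 4.95 and 4.92 in WT at day 8, 4.37, 4.5 and 3.63 in SCR and 2.81, 2.82 and 2.72 in KD-labelled EBs. At day 16 the values were 5.59, 8.36 and 6.69 in WT, 5.11, 4.63 and 5.33 in SCR and 2.87, 2.82 and 2.61 in KD-labelled EBs. KD-labelled arrays were below every control array on both days, and the WT arrays of day 16 spread over more than 2 units. The difference from SCR was -1.38 at day 8 (SE 0.34, adjusted p 0.00062) and -2.26 at day 16 (3.6e-07), and from WT -2.17 (8.9e-07) and -4.11 (4.8e-13). At day 12 the SCR mean was 3.36 ± 0.16 (SD, n = 3), with no called rise from ESC (0.48, limma adjusted p 0.2), and KD-labelled EBs, at 2.74 ± 0.03, differed by -0.63 from SCR (0.11) and by -1.65 from WT (7.1e-05). The 2 further Krt13 probe sets moved less, with uncalled day-16 differences from SCR of -0.36 and -0.34 (adjusted p 0.31 and 0.4), and with the mean of all its probe sets the day-8 difference was -0.51 (0.18). SCR was below WT at day 16 by -1.86 (0.00015), or 0.17 when only the 6 arrays were fitted.

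Krt1, the type II keratin of cells leaving the basal layer of epidermis, rose in WT alone among the 3 lines. Its day-16 arrays were at 6.21, 7.36 and 7.03 in WT, 4.26, 4.31 and 3.42 in SCR and 3.61, 3.88 and 3.47 in KD-labelled EBs. SCR and KD-labelled arrays overlapped (-0.34, adjusted p 0.11, or -0.51 and 0.014 after cyclic loess), and both were lower than WT, by -2.87 (5.2e-14) and -3.21 (6.9e-17). The change from ESC was 3.2 in WT (adjusted p 4.8e-17), 0.33 in SCR (0.11) and 0.04 in KD-labelled cells (0.91). Krt1 is thus a gene in which the scrambled control itself departed from WT.

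Krt10, the type I partner of Krt1, changed in opposite directions. At day 16 it read 8.25, 8.5 and 9.22 in WT, 7.45, 7.41 and 7.53 in SCR and 6.5, 6.32 and 6.59 in KD-labelled EBs, with no overlap between the 3 groups. From ESC to day 16 it rose by 2 in WT (SE 0.14, adjusted p 1.2e-14) and 0.9 in SCR (1.1e-06) and fell by 0.55 in KD-labelled cells (0.0022). KD-labelled EBs were lower than SCR by -0.72 at day 8 (5.6e-05), -1.01 at day 12 (1.7e-07) and -0.99 at day 16 (2.2e-07). In ESCs they were higher by 0.46 (adjusted p 0.016), a difference no longer called without the first or the third SCR array (0.43 and 0.42, adjusted p 0.066 and 0.064) or the first KD-labelled array (0.4, 0.076).

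Krt12, the type I keratin of corneal epithelium, was dim throughout but higher in KD-labelled EBs on every day. At day 4 the arrays read 4.51, 4.08 and 4.4 in KD-labelled cells, 3.09, 2.79 and 3.14 in SCR and 3.4, 3.23 and 3.09 in WT. The KD-labelled arrays stood clear of both controls, by 1.32 from SCR (SE 0.12, adjusted p 7.6e-12) and 1.09 from WT (1e-09). A further Krt12 probe set gave 1.52 for the first of these (2.1e-12). The excess over SCR was 0.51 at day 8, 0.9 at day 12 and 0.6 at day 16 (adjusted p 0.00038, 3.5e-08 and 3.3e-05). All these levels lie below the median of all values.

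The other 8 upper-layer keratins did not meet the criteria for full values. Krt80, of late differentiating layers, was higher in KD-labelled than SCR EBs at day 12 by 0.76 and at day 16 by 0.75 (adjusted p of the latter 3.9e-05). Krt79, found in hair canal and gland ducts, reached 4.91 ± 0.88 (SD, n = 3) in WT at day 16 and was lower than that by -1.09 in KD-labelled (limma adjusted p 0.00023) and by -1.37 in SCR EBs (0.00013, or 0.12 when only the 6 arrays were fitted). Outside the rule but close in role, Krt6a, a keratin induced in stressed and wounded epidermis, had day-16 means of 7.61 ± 0.99 in WT, 6.21 ± 0.15 in SCR and 5.18 ± 0.13 in KD-labelled EBs (SD, n = 3). Krt6b read 5.49 ± 1.73, 3.43 ± 0.3 and 3.07 ± 0.12.

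Of the 18 keratins of hair and root sheath, none was called with a 2-fold difference in any comparison of lines at 1 stage or from ESC to EB. At day 16, 8 of them were called higher in KD-labelled than SCR EBs and none lower (39.8% and 26.8% of all genes), so the share higher was near that of all genes. The differences were small, such as 0.44 for Krt72 (adjusted p 0.0026), a type II keratin of the inner root sheath. With each array centred on its median 14 of the 18 were called higher, and after cyclic loess none was (2 at an unadjusted limma p below 0.05), with Krt72 at 0.26 (0.051). The median of all 18193 genes was itself shifted by 0.17 in this comparison, by 0.25 with each array centred and by 0.05 after cyclic loess. The brightest of the group, Krt81, a type II hair keratin, had group means up to 7.03.

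Krt42, a type I keratin also listed in RefSeq as ecat6, was highest in ESCs in all 3 lines. ESC arrays read 8.58, 8.64 and 8.97 in WT, 8.24, 8.54 and 8.5 in SCR and 8.64, 8.91 and 8.76 in KD-labelled cells, and the EB arrays of all lines and days lay between 7.37 and 8.1. No EB array reached the level of any ESC array. From ESC to day 16 it fell by 1.11 in WT, 0.84 in SCR and 0.97 in KD-labelled cells (SE 0.12, adjusted p 3e-10, 1.2e-07 and 3e-08). KD-labelled cells were higher than SCR in ESCs (0.34, adjusted p 0.032) and at day 4 (0.31, 0.036). The ESC call was lost without the first SCR array (0.25, adjusted p 0.21) or the second or the third KD-labelled array (0.27 and 0.35, 0.16 and 0.066). The day-4 call was lost without the second or the third SCR array (0.24 and 0.32, adjusted p 0.16 and 0.062) or the first or the second KD-labelled array (0.29 and 0.26, 0.086 and 0.13). The probe set used carries the _x_ mark; a further Krt42 probe set, without it, fell more, by 3.17 in WT, 2.8 in SCR and 2.22 in KD-labelled cells, and on it KD-labelled EBs exceeded SCR by 1.19, 1.07, 0.77 and 1.21 from day 4 to day 16 (adjusted p 1e-04, 0.00029, 0.0075 and 5.4e-05). On that probe set the day-16 means were 3.94 in WT, 3.77 in SCR and 4.98 in KD-labelled EBs.

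Counted over the whole family, the number of calls between KD-labelled and SCR cells was highest at day 16, as it was over all genes. Keratins called higher and lower numbered 2 and 3 in ESCs (background over all genes 12.3% and 11.3%), 4 and 3 at day 4 (22.6% and 19.9%), 6 and 4 at day 8 (28% and 24.7%), 10 and 4 at day 12 (31% and 24.6%) and 15 and 10 at day 16 (39.8% and 26.8%). Without the first SCR ESC array the ESC count fell from 5 to 3, and without the second KD-labelled day-4 array the day-4 count fell from 7 to 4. At 2-fold or more, the counts higher and lower were 0 and 3 in ESCs (2.13% and 2.92% of all genes), 1 and 2 at day 4 (7.59% and 6.9%), 1 and 2 at day 8 (9.53% and 10.6%) and 3 and 3 at day 12 (10.2% and 11.3%). Day 16 had 0 keratins higher at that size (10.4% of all genes) and 6 lower (13%), the share lower being near that of all genes. The 6 were Krt15, Krt4, Krt20, Krt19, Krt13 and Krt14. These counts hold for the probe sets used. A further Krt42 probe set was higher by 1.21 (limma adjusted p 5.4e-05), and the 2 further Krt13 probe sets and 1 of Krt14 were not called lower. No keratin had a 2-fold excess over SCR on the probe sets used, so a looser p limit could not change the 0. The median difference over the 44 keratins was 0.22 at day 16, beside 0.17 over all genes. The balance of small calls depended on scaling: the 15 higher and 10 lower at day 16 became 22 and 10 with each array centred and 5 and 12 after cyclic loess, and the 10 and 4 at day 12 became 13 and 3, and 7 and 4. The day-16 median over all genes moved as well, from 0.17 to 0.25 and 0.05. Shares of all genes called under these scalings are not given, so the turn is not shown to be particular to keratins.

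Against WT at day 16, 11 keratins were higher and 13 lower in KD-labelled EBs (34.6% and 26.1% of all genes), and at 2-fold or more 0 were higher and 11 lower (8.59% and 11.8%). Here too no keratin had a 2-fold excess on the probe sets used, whatever the p limit. After cyclic loess the first pair of counts became 1 and 14, while the median difference over all genes went from 0.13 to 0.02. The shares of all genes called after cyclic loess are not given. Before day 16 the numbers higher and lower than WT were 1 and 1 in ESCs (8.66% and 9.78% of all genes), 2 and 4 at day 4 (19.2% and 19.9%), 3 and 5 at day 8 (26% and 23.9%) and 2 and 5 at day 12 (27.1% and 23.6%). The ESC total was 1 without the third KD-labelled array.

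SCR against WT at day 16 gave 0 higher and 10 lower (3.86% and 4.25% of all genes), of which 8 lower at 2-fold or more (1.33%): Krt1, Krt14, Krt13, Krt4, Krt79, Krt5, Krt10 and Krt7. At an unadjusted limma p below 0.05, 0 keratins were higher in SCR. In a fit of only the 6 arrays compared, 4 keratins were called in SCR against WT. Earlier, the numbers higher and lower in SCR than WT were 3 and 1 in ESCs (4.43% and 5.72%), 0 and 1 at day 4 (0.61% and 1.32%), 0 and 3 at day 8 (2.83% and 4.16%) and 2 and 9 at day 12 (7.05% and 7.67%). At an unadjusted limma p below 0.05, 0 keratins were higher at day 4 and 0 at day 8 (3 and 9 lower). Single arrays set these totals: in ESCs the total was 1 without the third WT array and 2 without the first SCR array, and at day 8 it was 1 without the first or the second WT array or the third SCR array. At day 12 it was 3 and 4 without the first and the third WT array, and 7 and 6 without the first and the second SCR array. The 3 comparisons of lines share arrays with each other, so their counts are not independent.

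**Figure D4:**
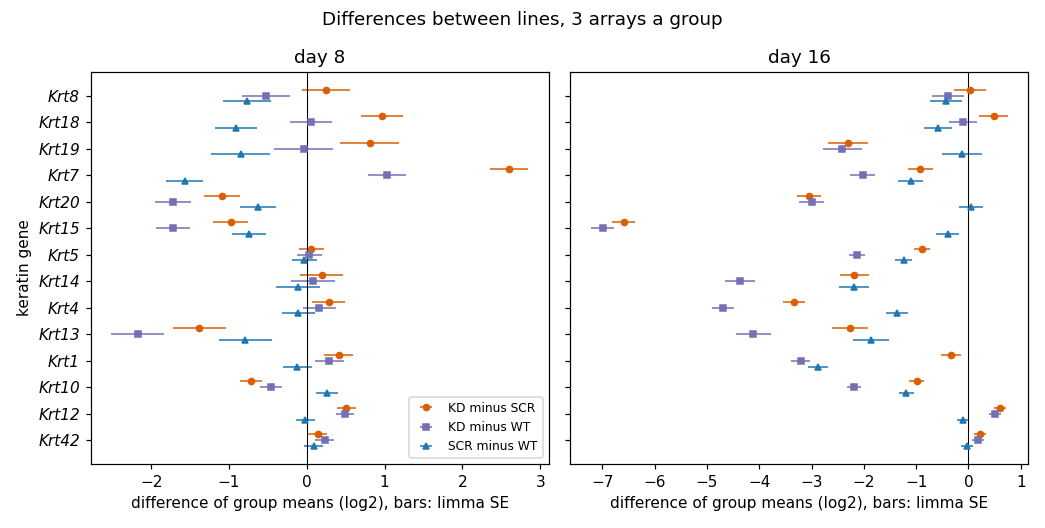
Points give differences of group means (horizontal axis, log2) with limma SE bars for the 14 keratins (vertical axis) at day 8 and day 16, for KD-labelled minus SCR, KD-labelled minus WT and SCR minus WT, 3 arrays a group. At day 8 Krt7 lies to the right in both KD-labelled comparisons, and at day 16 Krt15, Krt4 and Krt20 lie 3 units or more to the left in both, while SCR minus WT is near 0 for Krt15, Krt19 and Krt20.

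From ESC to day 16, 14 keratins rose and 13 fell in WT (28.1% and 38.1% of all genes), 12 rose and 20 fell in SCR (29.1% and 42.7%), and 5 rose and 5 fell in KD-labelled cells (19.1% and 19.1%). At 2-fold or more 12 rose in WT, 9 in SCR and 4 in KD-labelled cells (14.7%, 15.4% and 6.02% of all genes), the last 4 being Krt8, Krt18, Krt19 and Krt7. At the earlier days WT had 6 rising and 3 falling at day 4 (21.4% and 20.3%), 8 and 11 at day 8 (25.8% and 30.8%) and 8 and 9 at day 12 (26.8% and 33.2%). SCR had 2 and 3 (20.6% and 21.9%), 7 and 9 (26% and 32.2%) and 7 and 16 (27.5% and 39.1%) on the same days. KD-labelled cells had 4 and 4 (12.4% and 11.4%), 4 and 7 (17.8% and 19.1%) and 5 and 13 (20.2% and 23.2%). The KD-labelled totals were 5 at day 4 without the first ESC array or the second or the third day-4 array, and at day 12 they were 9, 11 and 10 without the third ESC, the first day-12 and the third day-12 array. By role, at day 16, 6 of 6 simple-epithelial keratins rose in WT and in SCR and 4 in KD-labelled cells. Of 4 basal-layer keratins, 3 rose in WT and in SCR and 0 in KD-labelled cells, where 0 rose at an unadjusted limma p below 0.05. The difference between KD-labelled and SCR cells itself changed with stage (limma F test over the 4 EB days against ESC) for 17 of the 44 keratins, beside 58.5% of all genes, with the smallest adjusted p for Krt15 (6.6e-20), Krt4 (2.5e-13) and Krt20 (9.6e-11).

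Promoter windows of RefSeq were matched for 31 of the 44 keratins (32 promoters), among them 10 of the 14 given in full. TATAAA, on either strand, was present in 17 of the 32 (53.1%), against 4473 of all 32851 promoter windows of the same length (13.6%). GGGCGG was in 2 of 32 (6.25%) against 35.7% of all windows, and TGANTCA in 2 of 32 (6.25%) against 7.81%. A match describes letters in the window and is not evidence of a bound site. TATAAA started at -26 in Krt10, at -29 in Krt12 and Krt20 and at 20 in Krt42. In WT and SCR, Krt10 and Krt20 rose from ESC to day 16, while Krt12 fell (-0.61 and -0.34, adjusted p 2.5e-05 and 0.012), as did Krt42.

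Genes of the complexes that anchor keratin filaments had mixed changes. Of 14 desmosome and linker genes, 3 were higher and 6 lower in KD-labelled than SCR EBs at day 16 (39.8% and 26.8% of all genes), with a median difference of -0.05. Dsp, the desmoplakin that ties keratin filaments to desmosomes, was lower at every stage, by -2.53 in ESCs, -2.8 at day 4, -2.48 at day 8, -0.74 at day 12 and -1.31 at day 16 (adjusted p 6.5e-12, 4.6e-14, 6.6e-13, 0.0022 and 9e-07). Pkp3, a plakophilin of the desmosomal plaque, was higher by 1.61 at day 8 (1.3e-11). Of 8 hemidesmosome genes, 6 were higher and 1 lower at day 8 (28% and 24.7% of all genes; median 0.86), with Col17a1, the hemidesmosomal collagen, at 1.22 (4.7e-06) and the laminin chain Lama3 at 1.32 (3.2e-06). Hemidesmosome genes at day 16 counted 4 higher and 1 lower (39.8% and 26.8%).

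In ESCs 12 of 16 junction and polarity genes of epithelia were lower in KD-labelled than SCR cells (11.3% of all genes; median -1.29), as were Krt8, Krt18 and Krt19. At day 8, 12 were higher and none lower (28% and 24.7% of all genes; median 1.18, all-gene median 0.07), among them the claudin Cldn4 (2.2, adjusted p 7.4e-10), and at day 16, 5 were higher and 2 lower (39.8% and 26.8%; median 0.12). At day 4, 12 junction genes were higher and 1 lower (22.6% and 19.9% of all genes), while Krt8 and Krt18 were lower. Of 16 epithelial transcription and splicing factors, 9 were higher and 2 lower at day 8 (28% and 24.7% of all genes) and 4 higher and 7 lower at day 16 (39.8% and 26.8%). Grhl2, a regulator of epithelial junction genes, was higher by 2.63 at day 16 (adjusted p 1.6e-14), while Ehf, an epithelial ETS factor, was lower by -5.69 (1.4e-21).

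Among 15 other intermediate filament genes, 7 were higher and 4 lower at day 16, shares near the 39.8% and 26.8% of all genes. Vim, the mesenchymal vimentin, was higher in KD-labelled than SCR ESCs by 0.96 (adjusted p 0.00032) and lower in EBs by -2.97, -3.77, -3.5 and -3.94 from day 4 to day 16 (1e-18 at day 16). Prph, the neuronal peripherin, was higher by 2.72 at day 16 (1e-11). Of 10 cornified envelope genes, 4 were higher and 2 lower at day 16, again near those shares: the crosslinking enzyme Tgm1 was higher by 1.02 (1.4e-07), and the envelope precursor Sprr1a lower by -3.23 (3.6e-09).

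The same cell types, and others known to make Krt8 and Krt18, were read at further stages. Of the visceral and parietal endoderm markers, 7 were higher and 7 lower in KD-labelled than SCR EBs at both day 8 (28% and 24.7% of all genes) and day 16 (39.8% and 26.8%), and the mean level at day 8 was 8.72 to 9.11 in KD-labelled, 8.38 to 8.84 in SCR and 8.92 to 8.98 in WT EBs. In ESCs the same list read 6.1 to 6.27, 5.56 to 5.66 and 5.52 to 5.71. Against the same day-16 shares of all genes, all 7 hepatocyte markers were lower at day 16 (6.21 to 7.01 in KD-labelled, 11.29 to 12.17 in SCR, 10.69 to 11.31 in WT EBs), as were 5 of 6 mesothelium markers with 1 higher (3.85 to 4.16, 6.32 to 6.63 and 7.1 to 7.77). Of the 9 trophoblast markers 6 were higher and 2 lower at day 16, with means of 5.64 to 5.79 in KD-labelled, 4.91 to 5.26 in SCR and 6.34 to 6.85 in WT EBs. The hepatocyte and endoderm lists share Afp, Ttr and Apoa1. Other lists overlap too: Cdx2 is in the gut and trophoblast lists, and the surface ectoderm list shares Trp63 with the transcription factors and Col17a1 with the hemidesmosome genes. Counts of overlapping lists are therefore not independent. For Krt8 and Krt18 no difference between lines was called at day 16, and the part of any of these cell types in the keratin results was not tested.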

How the data were processed

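Gene expression was measured on Affymetrix Mouse 430 2.0 arrays in 45 samples. The values used are the deposited log2 signals of 45037 probe sets, processed by the authors. RMA, Partek 6.6 and the Expression Console of Affymetrix are named per the submitters' processing notes, which give them no role or order here; raw scans were not used. Probe sets were named through the platform annotation: 34945 had 1 gene, 932 several and 9160 none, and only the first kind was used. Replicate arrays correlated at 0.9888 to 0.9961, and at most 2.22% of values were identical between any 2 of them. The number of arrays limits the precision, and no detection call was used.

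All 15 groups were fitted together with limma 3.58.1 (lmFit, eBayes; R 4.3.3), 30 residual degrees of freedom, with Benjamini-Hochberg adjustment over 18193 genes in each comparison and a threshold of 0.05. The members, lists and rules were chosen with earlier results of these data known. Full values are given for keratins with a group mean of at least 8, or called with at least a 2-fold difference between KD-labelled and SCR cells at any stage or from ESC to day 16 in any line; the genes named from each list are up to 4 members with the largest mean size of difference over the EB days. Some listed genes were not analysed here. Array numbers are the chip order given in the source names, because the titles number the SCR arrays differently from the WT arrays. Same-numbered arrays deviated together, with every pair's correlation above 0.1, in 2 of 27 comparisons. These were SCR against WT in ESCs and at day 8 (range of r over all comparisons -0.3 to 0.48). With the number as a block the keratin counts of both were unchanged. On simulated day-16 data for KD-labelled against SCR cells, the fit recovered 64% of genes changed 1.5-fold, 94% at 2-fold and 100% at 4-fold and 8-fold. At each size 50 genes were planted among 18193, and there were 8 false calls. The simulation had no other changed genes and no shift of all genes between the lines. In the real comparison 39.8% of genes were called higher and 26.8% lower, with a median difference of 0.17. The simulated rates therefore do not carry over to its small calls. Alternatives were scaling, a level filter, the mean of probe sets, fits of 6 arrays, trended robust eBayes, chip number as a block, a 2-fold limit and leaving out each array.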

Additional observations from a re-analysis of the deposited data

Results flagged for a closer look

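For 17 keratins the difference between KD-labelled and SCR cells itself varied over the 5 stages, by limma's F test of the 4 EB days against ESC. In the sentences below the p is that adjusted p, and the range is that of the KD-labelled minus SCR difference, with the stage at each end. Over all genes 58.5% had such a change, so the count is not particular to keratins.

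Krt15 (adjusted p 6.6e-20) ran from -0.07 at day 4 to -6.59 at day 16, and Krt4 (2.5e-13) from 0.28 at day 8 to -3.33 at day 16. Krt20 (9.6e-11) ran from 0.54 at day 4 to -3.05 at day 16. Among the basal and upper-layer genes, Krt14 (3.4e-06) ran from 0.23 at day 12 to -2.18 at day 16, Krt13 (8.6e-05) from 0.23 in ESCs to -2.26 at day 16, and Krt5 (0.0019) from 0.09 in ESCs to -0.89 at day 16.

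A change of sign between called stages was seen for Krt7 (2.8e-10), from 2.6 at day 8 to -0.92 at day 16. Krt18 (2.3e-08) ran from -1.35 at day 4 to 1.43 at day 12, and Krt8 (8.6e-06) from -1.52 at day 4 to 1.03 at day 12. It was also seen for Krt10 (3.8e-08), from 0.46 in ESCs to -1.01 at day 12, and Krt26 (0.0027), from -0.32 at day 4 to 0.38 at day 16, though the last of these values was not called after cyclic loess (0.23, adjusted p 0.085). Krt19 (5.4e-06) ran from 0.81 at day 8, not called, to -2.3 at day 16.

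Of the remaining genes, Krt12 (8e-06) ran from 0.22 in ESCs to 1.32 at day 4, and Krt80 (0.0011) from -0.09 at day 4 to 0.76 at day 12. Krt88 (0.007) ran from -0.16 at day 4 to 0.48 at day 12. Krt72 (0.041) ran from -0.16 at day 4 to 0.44 at day 16, and Krt76 (0.049) from -0.13 at day 12 to 0.55 at day 16.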

How the results depend on the processing

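The 332 keratin calls, those of every keratin in every comparison, were recomputed under 4308 alternatives in all: 3812 were still called in the same direction, 496 kept the direction without the call, and none reversed. The pooled figure hides a split. After cyclic loess, keratins given in full kept 177 calls and lost 4, while the others kept 78 and lost 73. On leaving out single arrays, the former kept 1006 and lost 80, and the others kept 646 and lost 260. For called results of the genes named from the other lists, the figures were 2211 of 2232 still called and 21 not, with none reversed. Those genes were picked for the size of their differences, so the high share follows in part from that choice. It does not describe the whole lists and cannot be set against the keratin figures. Every large difference stated for Krt15, Krt4 and Krt20 in KD-labelled EBs at day 16 held in each alternative in which the gene was tested.

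The number of keratins called moved more than the single large differences. Shares of all genes under the other scalings, filters and fits are not given. The counts below, other than those at 2-fold or more, therefore cannot be set against all genes. With the chip number as a replicate block the counts for KD-labelled against SCR were 5 in ESCs, 8 at day 4, 10 at day 8, 14 at day 12 and 25 at day 16, and no count moved by more than 1.5 times. After cyclic loess 15 were called for KD-labelled against WT at day 16, 10 and 21 in SCR from ESC to days 8 and 16, and 7 and 10 in KD-labelled cells from ESC to days 8 and 12. Leaving out genes whose highest group mean is under the median of that measure over all genes, 7.31, keeps 9 of the 44 keratins and leaves out, among others, Krt20, Krt5, Krt13 and Krt1. It left, from ESC to day 16 or from day 4 to day 16 in order, 4, 4, 5 and 6 for KD-labelled against SCR (days 4 to 16), 0, 2, 3, 3 and 6 for KD-labelled against WT, 6 and 4 for SCR against WT (days 12 and 16), 5, 6, 6 and 9 in WT against ESC, 3, 7, 7 and 9 in SCR, 5, 6, 6 and 6 in KD-labelled cells, and 8 whose difference changed with stage. With the mean of all probe sets, and with only the 6 arrays fitted, 1 was called for KD-labelled against WT ESCs. With only 6 arrays 0 were called for SCR against WT ESCs (4 higher and 2 lower at an unadjusted limma p below 0.05) and 4 at day 16. At 2-fold or more the counts from ESC to day 16 were 3, 3, 3, 6 and 6 for KD-labelled against SCR, 0, 3, 4, 3 and 11 for KD-labelled against WT, and 1 and 6 for SCR against WT at days 8 and 12. Against ESC, from day 4 to day 16, they were 5, 9, 9 and 13 in WT, 3, 5, 5 and 9 in SCR, and 3, 4, 5 and 4 in KD-labelled cells.

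Leaving out each array in turn gave, from ESC to day 16, 3 to 5, 4 to 6, 9 to 12, 10 to 13 and 20 to 27 keratins for KD-labelled against SCR, and 1 to 3, 5 to 6, 7 to 8, 7 to 9 and 16 to 23 for KD-labelled against WT. For SCR against WT it gave 1 to 5, 1 to 1, 1 to 3, 3 to 11 and 8 to 10. Against ESC, from day 4 to day 16, it gave 7 to 10, 15 to 21, 14 to 19 and 25 to 27 in WT, 4 to 5, 11 to 17, 17 to 20 and 26 to 30 in SCR, and 5 to 7, 8 to 11, 9 to 17 and 8 to 12 in KD-labelled cells. The number that changed with stage was 15 to 18. Counts moved by over 1.5 times without these arrays: the first SCR ESC array (3 for KD-labelled against SCR, 2 for SCR against WT), the third WT ESC array (1 for SCR against WT), and the third KD-labelled ESC array (1 for KD-labelled against WT, 9 from ESC to day 12). For SCR against WT at day 8 the count was 1 without the first or the second WT or the third SCR array. At day 12 it was 3 and 4 without the first and the third WT array, and 7 and 6 without the first and the second SCR array. KD-labelled counts from ESC were 5 at day 4 without the first ESC array or the second or the third day-4 array, and 11 and 10 at day 12 without the first and the third day-12 array; KD-labelled against SCR at day 4 was 4 without the second KD-labelled array. The cause of these shifts was not tested. Signals below the array median carry no detection call, so small differences among dim keratins are limited by signal over background.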
